A study of Homo sapiens with 9 samples.

Results

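The genes described here are 38 named genes of the integrated stress response and of the unfolded protein response of the endoplasmic reticulum (ER), out of 23284 gene symbols in the deposited files. They were taken by name for their known roles, with earlier results of these data known, and all 38 were present in the files. RNA was sequenced from 9 cultures of HT-29, an established human colon cancer cell line grown as a monolayer. The 3 groups, of 3 cultures each, received DMSO vehicle alone (0 µM 5-Aza, the control), 5 µM 5-Aza or 10 µM 5-Aza. 5-Aza is 5-aza-deoxycytidine, a nucleoside analogue that is built into DNA and traps the enzymes that methylate it. All groups share 1 cell line and 1 harvest design, each culture gave 1 library, and the 3 comparisons between doses share their samples.

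ATF4 is a transcription factor whose protein is made when cells lack amino acids or when unfolded protein gathers in the ER. Either signal lets a kinase phosphorylate eIF2 alpha, which slows general protein synthesis and favours translation of ATF4 itself. ATF4 then drives genes that make, import and load amino acids. A separate arm, run by the ER membrane sensors ERN1 (IRE1), ATF6 and the transcription factor XBP1, drives the chaperones that fold protein in the ER and the machinery that removes what cannot be folded. The question asked of the data was whether the 14 amino acid genes and the 9 chaperone and degradation genes moved together with the dose of 5-Aza.

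Both arms are known to act through short DNA elements, so promoter sequences are shown here for the genes in which such letters were found. RefSeq promoters, 250 bases before to 50 bases after the start on GRCh38.p14, were matched for 34 of the 38 genes, with no entry for NUPR1, PSPH, SHMT2 and SLC7A11. The first motif searched was the core of the C/EBP-ATF response element, TGATGNAAN, read on both strands. It lay in 6 of the 34 promoters (17.6%), against 3.67% of all 27305 promoters of that length. The holders were 4 of the 11 amino acid genes with an entry (ASNS, AARS, SLC3A2 and CARS), CHAC1 and HERPUD1. In the 4 that hold it upstream of the start, capitals mark the matched letters, and GTTGCATCA is the match read from the other strand.

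ASNS, chr7:97872452-97872492, minus strand: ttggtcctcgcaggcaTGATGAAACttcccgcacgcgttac
AARS, chr16:70289670-70289710, minus strand: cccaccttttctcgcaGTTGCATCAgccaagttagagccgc
CHAC1, chr15:40953245-40953285, plus strand: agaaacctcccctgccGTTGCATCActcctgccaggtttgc
HERPUD1, chr16:56931949-56931989, plus strand: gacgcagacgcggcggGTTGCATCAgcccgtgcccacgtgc

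The second motif was the ER stress response element, CCAAT followed after any 9 bases by CCACG, also on both strands. It lay in 3 of the 34 promoters, those of HSPA5, HSP90B1 and XBP1, against 0.0806% of all promoters of that length. HSP90B1 held it at 2 positions, once on each strand, and the matched letters are again in capitals. The third motif, the unfolded protein response element TGACGTGG, lay in 0 of the 34 promoters and in 0.795% of all promoters. A match in these letters is a description of the sequence and not a measured binding site.

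HSPA5, chr9:125241375-125241425, minus strand: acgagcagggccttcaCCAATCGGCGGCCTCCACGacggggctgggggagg
HSP90B1, first match, chr12:103930200-103930250, plus strand: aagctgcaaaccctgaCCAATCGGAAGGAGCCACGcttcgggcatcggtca
HSP90B1, second match, chr12:103930305-103930355, plus strand: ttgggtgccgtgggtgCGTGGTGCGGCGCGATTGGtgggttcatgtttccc
XBP1, chr22:28800587-28800637, minus strand: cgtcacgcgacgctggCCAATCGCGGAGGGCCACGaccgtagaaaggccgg

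Levels are given as FPKM, counts of sequenced fragments scaled by the length of the gene's exons and by the size of the library. The FPKM values of a library summed to between 3692498323 and 5908123637, far above what the unit allows, so they were read as relative levels, and 1 unit below stands for 1000000 FPKM. The size of 1 fragment in the low values gave an estimated 12746538 to 34772326 fragments per library. Every gene of the 38 other than STC2 had at least 169.8 estimated fragments in every library. The 10 µM replicate 2 was the highest of its group for 36 of the 37 genes other than STC2, and the control replicate 3 was the lowest of its group for 35. The same order held for the median log2 ratio of a library to the mean of all 9, over 15278 genes above 0 in each. It was -0.26, 0.077 and -0.22 in the 10 µM replicates 1 to 3, and 0.139, 0.127 and 0.053 in the control replicates. The genes were tested with limma on log2(FPKM + 1), and adjusted p denotes the Benjamini-Hochberg value over all genes tested. In RNA pooled from a culture, fewer cells expressing a gene and less RNA per cell cannot be told apart.

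Colon epithelial identity was checked on 7 markers, all of which were above 0 at each dose. Their summed level was 76.3 to 91.4 units in the control, 30.7 to 35.0 units at 5 µM and 24.7 to 42.8 units at 10 µM. Of the 7, 5 fell at 5 µM vs. 0 µM, among them the keratins KRT8 (log2 difference -1.65) and KRT18 (-1.64). Falls at that dose were called for 17.7% of all genes tested and for 46.5% of those with a mean of at least 1 unit. A list of 8 stroma, blood and endothelial markers summed to 0.133 to 0.139 units in the control, 0.697 to 0.744 units at 5 µM and 0.219 to 0.366 units at 10 µM. CD68 alone made up 87.4% to 94.2% of this sum, and the other 7 summed to 7733 to 12760 FPKM in the control, 43930 to 57126 at 5 µM and 21966 to 28456 at 10 µM. Of these 8, 7 rose at 5 µM, beside 21.3% of all genes tested, and CD3E was at 0 in the control and COL1A2 at 10 µM. The part of these shifts in the results below was not tested.

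At 5 µM vs. 0 µM, 29 of the 38 genes passed an adjusted p of at most 0.05 by limma, with 9 higher and 20 lower. Over all 20051 genes tested, 21.3% were higher and 17.7% lower. A change over 2-fold was called higher for NUPR1 and STC2, against 14.1% of all genes, and lower for SESN2, PSPH and MTHFD2, against 2.17%. The median log2 difference was -0.33 over the 38 genes and 0.14 over all genes tested. The count of lower genes was 12 in place of 20 without the control replicate 2 or without the 5 µM replicate 1. Over all genes, the lower counts were then 2320 of 20021 and 2674 of 19795, against 3553 of 20051.

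That background differs with abundance, and most of these genes are abundant. Of the 38, 22 had a mean of at least 1 unit over the 5 µM and control samples, and among the 804 tested genes at that level the median log2 difference was -0.33, with 46.5% lower and 7.46% higher. Among the 6552 tested genes between 0.1 and 1 unit it was -0.17, with 33.6% lower and 12.6% higher. In the deposited values, a lower value alone is therefore common among genes this abundant, and a higher value is not. This background depends on scaling. With libraries scaled to the same total, 6616 of the 20051 genes were higher and 1549 lower, and these were not split by abundance.

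The step from 5 to 10 µM called fewer genes. Of the 38 genes, 7 were lower and 0 higher at 10 µM vs. 5 µM, against 5.85% and 0.319% of the 20085 genes tested. At an unadjusted limma p under 0.05, 14 were lower and 0 higher, against 21.96% and 2.84% of all genes. With a change over 2-fold, NUPR1, STC2 and PDIA4 were lower, against 4.82% of all genes, and 0 of the 38 were higher, against 0.129%. Against the control, 13 were lower and 1 higher at 10 µM, against 9.71% and 5.39% of the 18928 genes tested. With a change over 2-fold, CEBPB, DDIT4, PSAT1, PSPH and MTHFD2 were lower, against 3.4% of all genes, and STC2 was higher, against 4.07%. Both counts of lower genes hung on single libraries, rising to 17 and 26 without the 10 µM replicate 2 and falling to 1 and 1 without other single replicates. The counts over all genes moved too, from 1175 of 20085 and 1837 of 18928 to 3993 of 20029 and 5219 of 18632 without the 10 µM replicate 2. They fell to 176 of 19772 without the 5 µM replicate 3 and to 176 of 18843 without the control replicate 2.

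**Figure D1:**
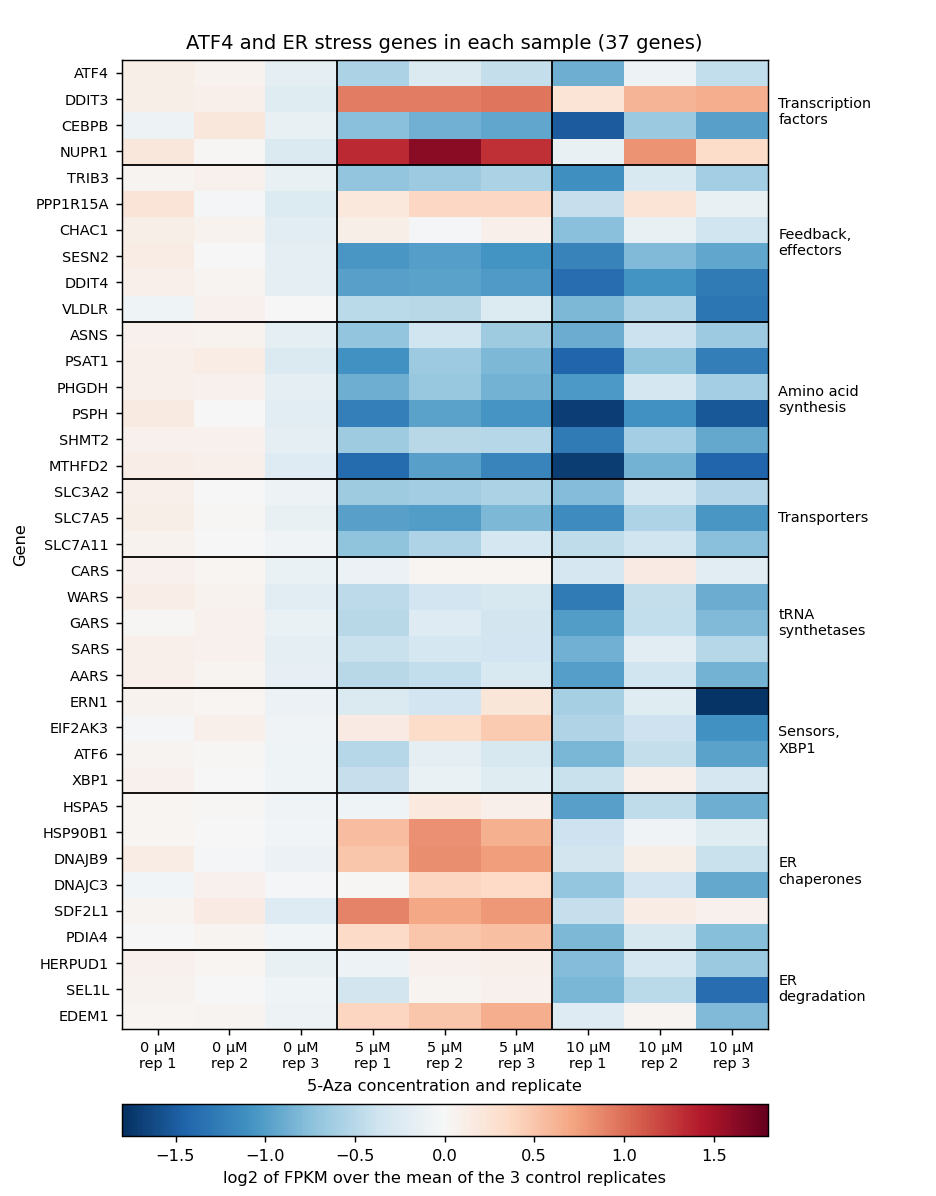
Heat map of 37 of the genes (rows, in groups by role) in the 9 samples (columns). Colour gives the log2 of a sample's FPKM over the mean of the 3 control replicates, red above and blue below. STC2 is left out because its control values are 0. The amino acid rows other than CARS are blue at 5 µM and 10 µM, while HSP90B1, DNAJC3 and PDIA4 are red in each 5 µM sample and blue in each 10 µM sample, where the mean of HSP90B1 turns above the control under other scalings.

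Of the 4 transcription factors, DDIT3 and NUPR1 rose and ATF4 and CEBPB fell at 5 µM vs. 0 µM. ATF4 itself (chr22:39915700-39918688, plus strand, GRCh37) stood at 4.33, 4.21 and 3.57 units in the control replicates, 2.73, 3.37 and 2.99 units at 5 µM and 2.21, 3.78 and 2.97 units at 10 µM. All 5 µM replicates lay below all control replicates, while the 10 µM replicates overlapped both groups. The log2 difference was -0.42 (SE 0.13, limma adjusted p = 0.0412) at 5 µM vs. 0 µM, a call that was lost under 8 of 16 alternative settings. Since ATF4 is controlled mainly at translation, its RNA level says little about the amount of its protein, which was not measured.

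DDIT3 (chr12:57910371-57915520, minus strand, GRCh37) encodes CHOP, a factor linked to death of stressed cells that ATF4 can activate. It stood at 1.26, 1.25 and 1.01 unit in the control, 2.22, 2.22 and 2.29 units at 5 µM and 1.39, 1.79 and 1.85 units at 10 µM. Every 5 µM replicate lay above every 10 µM replicate, and these above every control replicate. DDIT3 rose 1.91-fold at 5 µM vs. 0 µM, with a log2 difference of 0.94 (SE 0.11, limma adjusted p = 0.00109). Its log2 difference of 0.51 (SE 0.19) at 10 µM vs. 0 µM did not pass the test (limma adjusted p = 0.104).

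NUPR1, a small stress-induced chromatin protein, showed the largest rise among the 37 genes detected in the control. Its values were 0.199, 0.176 and 0.146 units in the control, 0.440, 0.537 and 0.430 units at 5 µM and 0.159, 0.304 and 0.219 units at 10 µM. The 5 µM replicates lay above all others, and the 10 µM and control replicates overlapped. NUPR1 rose 2.70-fold at 5 µM vs. 0 µM (log2 difference 1.44, SE 0.14, limma adjusted p = 0.000765) and fell at 10 µM vs. 5 µM (log2 difference -1.09, SE 0.24, limma adjusted p = 0.0459). CEBPB, a bZIP factor that pairs with ATF4, went the other way. It stood at 1.58, 1.93 and 1.53 units in the control, 1.00, 0.926 and 0.883 units at 5 µM and 0.597, 1.06 and 0.855 units at 10 µM. Both treated groups lay below the control and overlapped each other, with log2 differences of -0.84 (SE 0.11, limma adjusted p = 0.00182) at 5 µM and -1.04 (SE 0.24, limma adjusted p = 0.0308) at 10 µM. The 10 µM call of CEBPB was lost under 6 of the 16 alternative settings, and the fall of NUPR1 at 10 µM vs. 5 µM under 8.

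Of the 7 feedback and stress effector genes, 4 fell and 1 rose at 5 µM vs. 0 µM. STC2 (chr5:172741726-172755450, minus strand, GRCh37) encodes stanniocalcin 2, a secreted glycoprotein. It was listed at 0 in all 3 control samples, at 25018, 30879 and 26042 FPKM at 5 µM and at 1871, 2220 and 1659 FPKM at 10 µM. These correspond to an estimated 315, 370 and 351 fragments at 5 µM but only 12.4, 23.3 and 14.8 fragments at 10 µM, so the 10 µM level is less certain than the others. STC2 passed the limma test in each comparison and under each alternative, and no fold against the control is given because the control is listed at 0. At 10 µM its mean was 0.0702 times that at 5 µM (log2 difference -3.84, SE 0.27, limma adjusted p = 0.00197).

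TRIB3, a pseudokinase that binds and restrains ATF4, stood at 2.70, 2.76 and 2.39 units in the control, 1.60, 1.66 and 1.77 units at 5 µM and 1.22, 2.16 and 1.71 units at 10 µM. Both treated groups lay below the control. Its log2 difference was -0.64 at 5 µM (SE 0.09, limma adjusted p = 0.00239) and -0.66 at 10 µM (SE 0.25, limma adjusted p = 0.104). PPP1R15A (GADD34), which brings a phosphatase to eIF2 alpha, had a log2 difference of 0.32 at 5 µM vs. 0 µM (SE 0.13) and did not pass the test (limma adjusted p = 0.103). CHAC1, an enzyme that degrades glutathione and whose promoter holds the C/EBP-ATF letters shown above, differed by 0.06 (SE 0.10, limma adjusted p = 0.61). The control and 5 µM replicates of both genes overlapped.

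SESN2 and DDIT4, both restrainers of the growth kinase mTORC1, fell at each dose. SESN2 stood at 0.626, 0.575 and 0.510 units in the control, 0.277, 0.288 and 0.272 units at 5 µM and 0.248, 0.327 and 0.300 units at 10 µM. DDIT4 stood at 2.83, 2.74 and 2.36 units in the control, 1.35, 1.36 and 1.299 units at 5 µM and 1.02, 1.25 and 1.09 units at 10 µM. In neither gene did a treated replicate reach the control range. The log2 differences at 5 µM vs. 0 µM were -1.03 for SESN2 (SE 0.09, limma adjusted p = 0.000498) and -0.98 for DDIT4 (SE 0.09, limma adjusted p = 0.000654). They were -0.97 (SE 0.15, limma adjusted p = 0.0119) and -1.24 (SE 0.18, limma adjusted p = 0.00935) at 10 µM vs. 0 µM. VLDLR, a lipoprotein receptor, also fell, by 0.40 on the log2 scale at 5 µM and by 0.88 at 10 µM against the control.

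All 6 genes of serine and asparagine synthesis and of the one-carbon pathway fell at 5 µM vs. 0 µM, with a median log2 difference of -0.82. MTHFD2 (chr2:74413299-74444692, plus strand, GRCh37), a mitochondrial folate enzyme, stood at 3.25, 3.19 and 2.55 units in the control, 1.14, 1.52 and 1.32 units at 5 µM and 0.917, 1.67 and 1.11 units at 10 µM. Its mean at 5 µM was 0.443 times the control mean, a log2 difference of -1.18 (SE 0.15, limma adjusted p = 0.0015). PSPH, which takes the last step of serine synthesis, stood at 0.484, 0.437 and 0.380 units in the control, 0.185, 0.223 and 0.208 units at 5 µM and 0.134, 0.203 and 0.1498 units at 10 µM. Both genes were well below the control range in every treated replicate. For PSPH the log2 difference was -1.07 (SE 0.12, limma adjusted p = 0.000959) at 5 µM and -1.43 (SE 0.18, limma adjusted p = 0.00689) at 10 µM.

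The other 4 genes of this pathway fell by less. PSAT1, the aminotransferase of serine synthesis, fell by 0.84 on the log2 scale at 5 µM, and PHGDH, its first enzyme, by 0.80. ASNS (asparagine synthetase), whose promoter holds the C/EBP-ATF letters, fell by 0.57, and SHMT2 (mitochondrial serine hydroxymethyltransferase) by 0.54. For each of these 4, all treated replicates at both doses lay below all control replicates. Against the control, PSAT1 (-1.12, SE 0.25) and SHMT2 (-0.93, SE 0.23) also passed the test at 10 µM, with limma adjusted p of 0.0299 and 0.039. ASNS (-0.64, SE 0.22) and PHGDH (-0.65, SE 0.20) did not, with limma adjusted p of 0.083 and 0.0666. The 10 µM calls of PSAT1 and SHMT2 were each lost under 7 of the 16 alternative settings. Reads of 12 of the 38 genes, among them ATF4, ASNS, PSAT1, PSPH and MTHFD2, may be shared with named pseudogenes, of which MTHFD2 has 7.

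The 3 amino acid transporters fell at 5 µM as well. SLC3A2, the heavy chain that carries the other 2 to the membrane, had the highest control level of the 38 genes. It stood at 6.97, 6.59 and 6.15 units in the control, 4.22, 4.27 and 4.42 units at 5 µM and 3.83, 5.29 and 4.56 units at 10 µM. SLC7A5 (LAT1), its partner for leucine uptake, stood at 4.46, 4.21 and 3.77 units in the control, 2.10, 2.07 and 2.37 units at 5 µM and 1.89, 2.83 and 2.00 units at 10 µM. In both genes the treated replicates lay below the control and the treated groups overlapped. The log2 differences at 5 µM were -0.61 (SE 0.10, limma adjusted p = 0.0045) for SLC3A2 and -0.93 (SE 0.10, limma adjusted p = 0.00114) for SLC7A5. SLC7A11 (xCT), the cystine importer, fell by 0.53 on the log2 scale. The differences of SLC7A5 (-0.91) and SLC7A11 (-0.52) at 10 µM vs. 0 µM passed with limma adjusted p of 0.0472 and 0.0485, and that of SLC3A2 (-0.54) did not (limma adjusted p = 0.21). These calls of SLC7A5 and SLC7A11 were lost under 9 and 10 of the 16 alternative settings.

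The tRNA synthetases, which load amino acids onto tRNA, had the smallest median log2 difference of the amino acid genes at 5 µM vs. 0 µM, -0.35. WARS, GARS, SARS and AARS passed the test at 5 µM vs. 0 µM with log2 differences of -0.36, -0.35, -0.35 and -0.40 and limma adjusted p of 0.0493, 0.0418, 0.0332 and 0.0227. These 4 calls were lost under between 7 and 11 of the 16 alternative settings. CARS did not pass, at 1.11, 1.08 and 0.975 units in the control, 0.985, 1.08 and 1.09 units at 5 µM and 0.856, 1.16 and 0.912 units at 10 µM. Its 3 groups overlapped, and the log2 difference was -0.01 at 5 µM (SE 0.08, limma adjusted p = 0.955). Of the 5, 0 passed the limma test at 10 µM vs. 0 µM and 3 were lower at an unadjusted p under 0.05, against 24.2% of all genes, and their log2 differences there lay between -0.86 and -0.12.

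Counted over the 14 amino acid genes together, 13 fell at 5 µM vs. 0 µM, all 14 differences were negative, and the median log2 difference was -0.55. For all of these 13, every replicate at 5 µM lay below every control replicate. These 13 were picked by their call on the same samples, so the separation adds no support. Its share over all genes was not counted. Of the 14 genes, 11 had a mean of at least 1 unit, a level at which 46.5% of all tested genes were lower. Differences at 5 µM vs. 0 µM were positive for only 25.9% of genes at that level. Between 0.1 and 1 unit, where the other 3 lay, 31.9% were positive. In the 10 µM vs. 0 µM comparison 6 fell and the median was -0.74, against -0.56 over the 758 tested genes at or above 1 unit, of which 17.7% were lower. At an unadjusted limma p under 0.05, 11 of the 14 were lower, against 24.2% of all genes. With median-of-ratios scaling 8 of the 14 fell, and with equal totals 7, against 1797 and 1105 of the 18928 genes tested. Between the doses, 0 of the 14 passed the limma test, 0 had an unadjusted p under 0.05 and the median was -0.16, against -0.18 over tested genes of at least 1 unit.

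**Figure D2:**
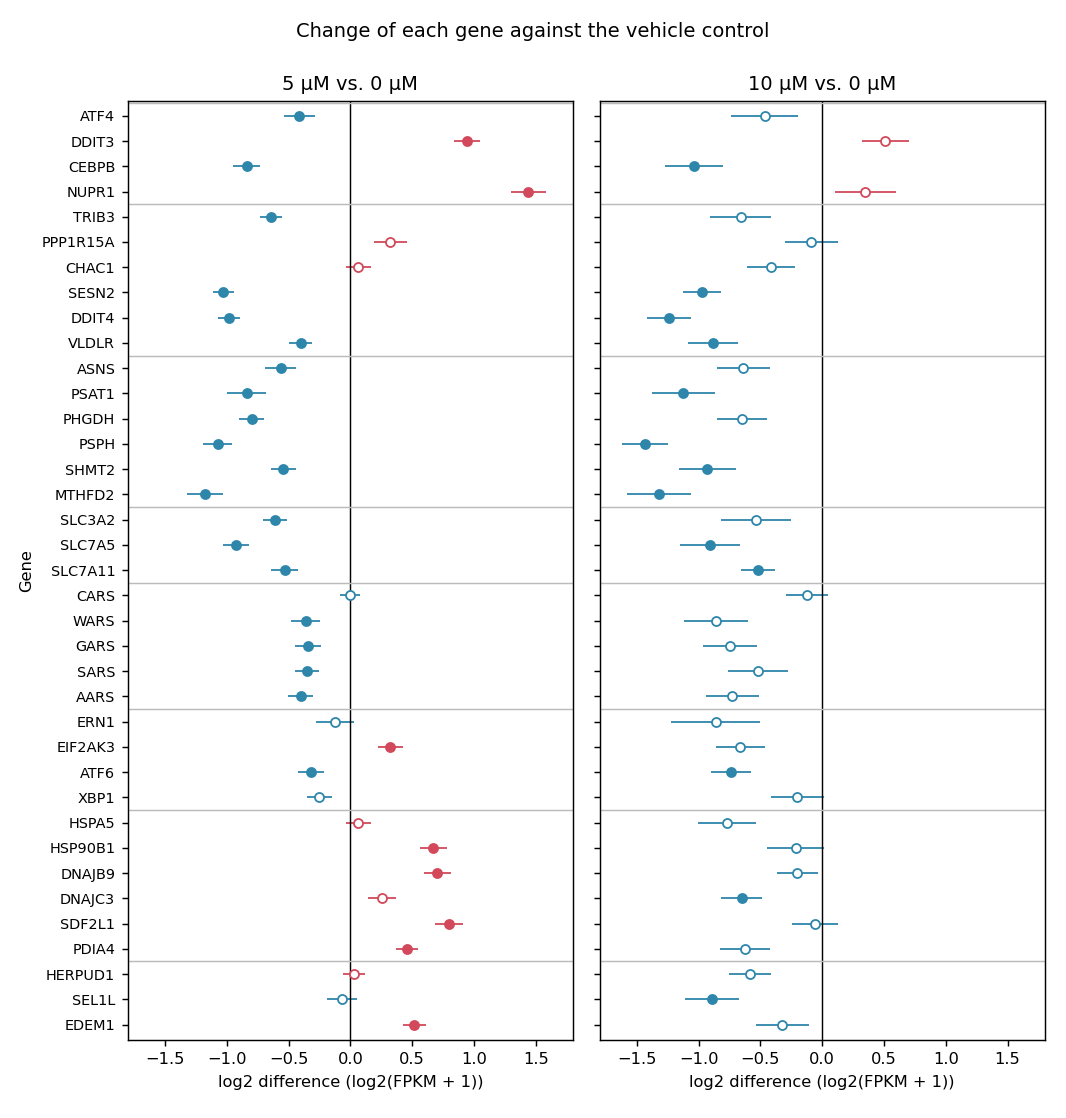
Log2 difference of each of 37 genes on the log2(FPKM + 1) scale against the control, at 5 µM (left) and 10 µM (right), with the standard error of the limma fit as a bar. Filled points passed an adjusted p of 0.05, open points did not, red is higher and blue lower than the control, and grey lines part the groups of genes. Amino acid genes lie left of 0 in both panels (CARS turns right under other scalings), while ER chaperones lie right of 0 at 5 µM and left of 0 at 10 µM, where HSP90B1, DNAJB9 and SDF2L1 turn right under other scalings.

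Of the 3 sensors of ER stress and XBP1, 1 rose and 1 fell at 5 µM vs. 0 µM. EIF2AK3 (PERK), the ER kinase that phosphorylates eIF2 alpha, stood at 0.0944, 0.104 and 0.0930 units in the control, 0.108, 0.122 and 0.134 units at 5 µM and 0.0668, 0.0752 and 0.0458 units at 10 µM. The 3 groups did not overlap, with 5 µM highest and 10 µM lowest. EIF2AK3 rose at 5 µM vs. 0 µM (log2 difference 0.32, SE 0.10, limma adjusted p = 0.0471) and fell at 10 µM vs. 5 µM (-0.98, SE 0.21, limma adjusted p = 0.0393). ATF6, the sensor cleaved in the Golgi, fell at 5 µM (-0.32, SE 0.10, limma adjusted p = 0.0491) and at 10 µM (-0.74, SE 0.16, limma adjusted p = 0.0271) against the control. The 5 µM call of EIF2AK3 was lost under 8 of the 16 alternative settings and that of ATF6 under 11. Their 10 µM calls, against 5 µM for EIF2AK3 and against the control for ATF6, were each lost under 7.

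ERN1 (IRE1), the kinase and nuclease that splices XBP1 RNA, had log2 differences of -0.13 (SE 0.15) at 5 µM and -0.86 (SE 0.36) at 10 µM against the control, with limma adjusted p of 0.522 and 0.135. Its 10 µM values of 0.124, 0.162 and 0.0553 units spread widely. XBP1, whose promoter holds the ER stress response element letters, stood at 2.88, 2.71 and 2.58 units in the control, 2.04, 2.51 and 2.33 units at 5 µM and 2.06, 2.91 and 2.22 units at 10 µM. Its 5 µM replicates lay below the control, but the log2 difference of -0.25 (SE 0.10) did not pass the test (limma adjusted p = 0.107). Spliced and unspliced XBP1 RNA cannot be separated in values per gene.

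The 6 ER chaperone and folding genes had positive log2 differences at 5 µM vs. 0 µM, and 4 of them rose. HSP90B1 (GRP94, chr12:104323885-104347709, plus strand, GRCh37), an abundant chaperone of the ER lumen, stood at 4.28, 4.17 and 4.03 units in the control, 6.09, 7.32 and 6.50 units at 5 µM and 3.22, 3.97 and 3.59 units at 10 µM. SDF2L1, a partner of the chaperone HSPA5, stood at 0.227, 0.244 and 0.188 units in the control, 0.407, 0.355 and 0.375 units at 5 µM and 0.164, 0.241 and 0.233 units at 10 µM. In both genes the 5 µM replicates lay above all others. HSP90B1 rose 1.60-fold at 5 µM (log2 difference 0.67, SE 0.11, limma adjusted p = 0.00459) and SDF2L1 rose 1.73-fold (log2 difference 0.79, SE 0.11, limma adjusted p = 0.00257).

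DNAJB9, a co-chaperone that also restrains ERN1, stood at 0.371, 0.331 and 0.317 units in the control, 0.482, 0.609 and 0.572 units at 5 µM and 0.270, 0.366 and 0.258 units at 10 µM. PDIA4, a disulfide isomerase, stood at 2.32, 2.38 and 2.23 units in the control, 2.93, 3.26 and 3.34 units at 5 µM and 1.31, 1.89 and 1.35 units at 10 µM. Again the 5 µM replicates were above all others, and for PDIA4 the 10 µM replicates were below all others. The log2 differences at 5 µM vs. 0 µM were 0.70 (SE 0.11, limma adjusted p = 0.00361) for DNAJB9 and 0.46 (SE 0.09, limma adjusted p = 0.00789) for PDIA4. Between 10 and 5 µM they were -0.91 (SE 0.18, limma adjusted p = 0.0305) and -1.08 (SE 0.21, limma adjusted p = 0.0308), calls lost under 7 and 5 of the 16 alternative settings.

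HSPA5 (BiP), the main chaperone of the ER and a common marker of the unfolded protein response, passed at neither dose in the deposited values. It stood at 4.16, 4.15 and 3.92 units in the control, 3.86, 4.59 and 4.36 units at 5 µM and 2.06, 2.98 and 2.23 units at 10 µM. The control and 5 µM replicates overlapped, and the 10 µM replicates lay below both. Its log2 difference was 0.06 at 5 µM (SE 0.10, limma adjusted p = 0.632) and -0.77 at 10 µM (SE 0.23, limma adjusted p = 0.064), so neither passed. With median-of-ratios scaling the difference at 10 µM vs. 0 µM was -0.53 (SE 0.13) and passed (limma adjusted p = 0.0351). The promoters of HSPA5 and HSP90B1 both hold the ER stress response element letters shown above, and their log2 differences at 5 µM were 0.06 and 0.67, a gap between genes that was not tested. DNAJC3 (p58IPK), a co-chaperone, had a log2 difference of 0.26 at 5 µM (SE 0.11, limma adjusted p = 0.117) and fell at 10 µM against both other groups, by 0.91 against 5 µM and by 0.65 against the control. These 2 falls were lost under 7 and 9 of the 16 alternative settings.

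Of the 3 genes of ER degradation, 1 rose at 5 µM vs. 0 µM. EDEM1, which marks misfolded glycoproteins for removal, stood at 0.128, 0.129 and 0.117 units in the control, 0.163, 0.176 and 0.196 units at 5 µM and 0.106, 0.128 and 0.0719 units at 10 µM. The 5 µM replicates lay above all others, with a log2 difference of 0.52 against the control (SE 0.09, limma adjusted p = 0.00576). HERPUD1 and SEL1L, which hold the membrane complex that exports such proteins, had log2 differences of 0.03 (SE 0.09) and -0.07 (SE 0.12), with limma adjusted p of 0.816 and 0.655. SEL1L fell at 10 µM vs. 0 µM, by 0.89 on the log2 scale (SE 0.22, limma adjusted p = 0.038), a call lost under 8 of the 16 alternative settings.

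Over the 9 chaperone and degradation genes together, 5 rose at 5 µM vs. 0 µM, 8 of the 9 differences were positive, and the median log2 difference was 0.46. By abundance, 4 of the 9 had a mean of at least 1 unit and 5 between 0.1 and 1 unit, levels at which 7.46% and 12.6% of all tested genes were higher. At these levels 25.9% and 31.9% of all differences were positive. In 10 µM vs. 5 µM, 4 fell (DNAJB9, DNAJC3, SDF2L1 and PDIA4), all 9 were lower at an unadjusted limma p under 0.05, against 21.96% of all genes, and the median was -0.85. The median over all genes tested was -0.31, with 24.4% of differences positive, and it was -0.18 among genes of at least 1 unit and -0.19 between 0.1 and 1 unit, where 3 and 6 of the 9 lay. In 10 µM vs. 0 µM, 2 fell (DNAJC3 and SEL1L), all 9 differences were negative and the median was -0.59. That was near the median of genes of at least 1 unit and lower than that of genes between 0.1 and 1 unit. Over tested genes of at least 1 unit the median was -0.56, with 17.7% lower and 17.5% of differences positive. Between 0.1 and 1 unit it was -0.37, with 18.2% lower and 19.7% of differences positive. These levels held 3 and 6 of the 9. With median-of-ratios scaling the median of the 9 was -0.35, and HSP90B1, DNAJB9 and SDF2L1 turned positive. Under that scaling 4 of the 9 were lower (HSPA5, DNAJC3, HERPUD1 and SEL1L), against 1797 of the 18928 genes tested. With libraries scaled to the same total 1 of the 9 was lower, against 1105 of the 18928.

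**Figure D3:**
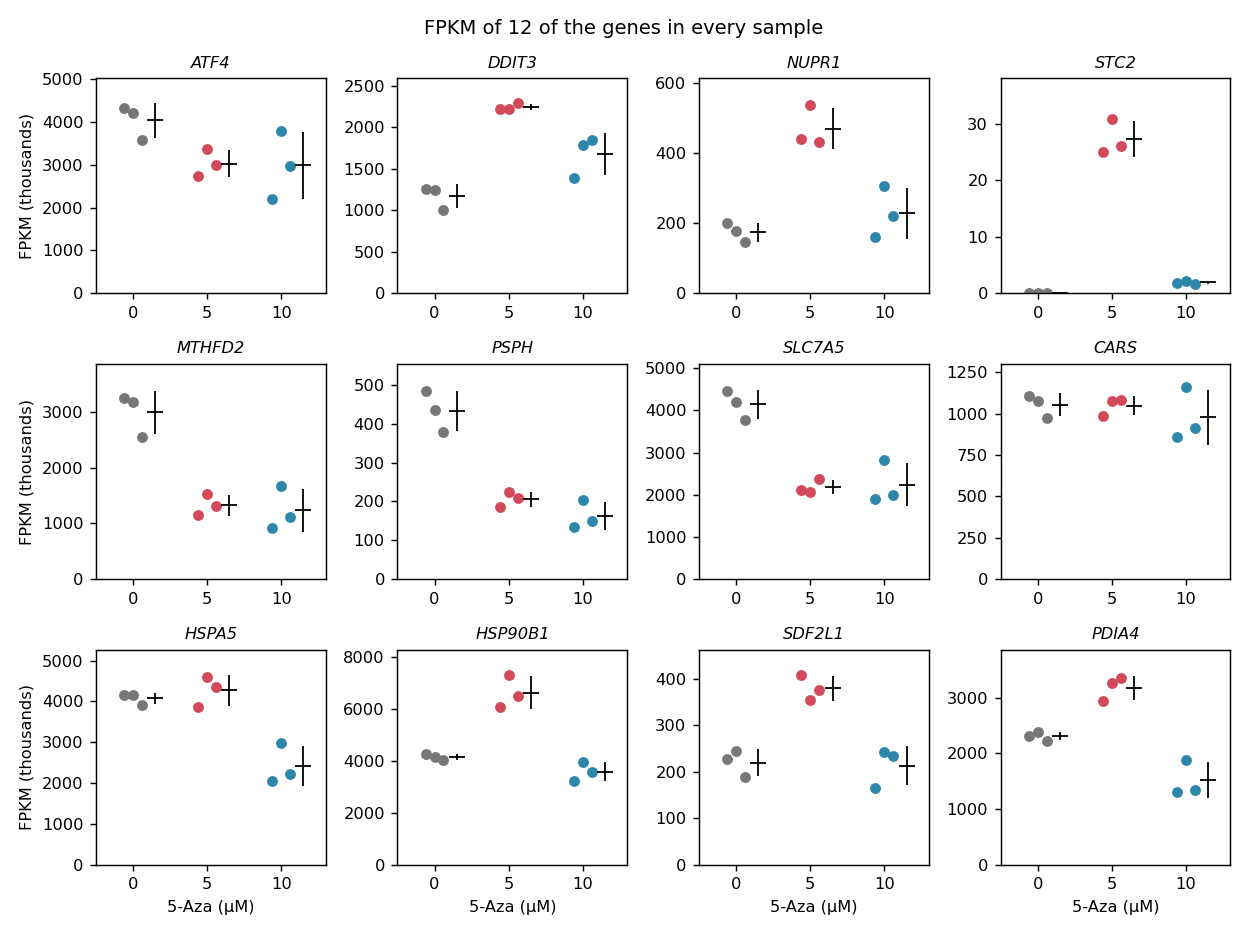
Level (in units of 1000 FPKM, each axis starting at 0) of 12 genes against the concentration of 5-Aza. Points are the 3 replicates, and the black mark beside them is their mean with the SD. DDIT3, NUPR1, HSP90B1, SDF2L1 and PDIA4 are highest at 5 µM, MTHFD2, PSPH and SLC7A5 are lower at both doses than in the control, CARS overlaps at all doses, and STC2 is at 0 in the control.

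The 2 groups of genes were also compared within each sample, where a library's own scaling cancels. The mean log2(FPKM + 1) of the 14 amino acid genes exceeded that of the 9 chaperone and degradation genes by 1.51, 1.48 and 1.39 in the control replicates. At 5 µM the excess was 0.486, 0.472 and 0.452, and at 10 µM it was 1.01, 1.19 and 1.27. The group means were 1.46 ± 0.060, 0.470 ± 0.017 and 1.15 ± 0.13 (SD, n = 3). The 3 groups did not overlap, with the 5 µM replicates lowest and the control highest. No test is given for this value, since it is a score over chosen genes.

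The levels behind that difference moved in different ways at the 2 doses. For the amino acid genes the mean was 20.97 ± 0.14 without 5-Aza, 20.36 ± 0.10 with 5 µM and 20.18 ± 0.30 with 10 µM (SD, n = 3). For the chaperone and degradation genes it was 19.51 ± 0.077 without 5-Aza, 19.89 ± 0.12 with 5 µM and 19.03 ± 0.26 with 10 µM. At 5 µM the first mean was thus lower than in the control and the second higher, and at 10 µM both were lower in the values as deposited.

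**Figure D4:**
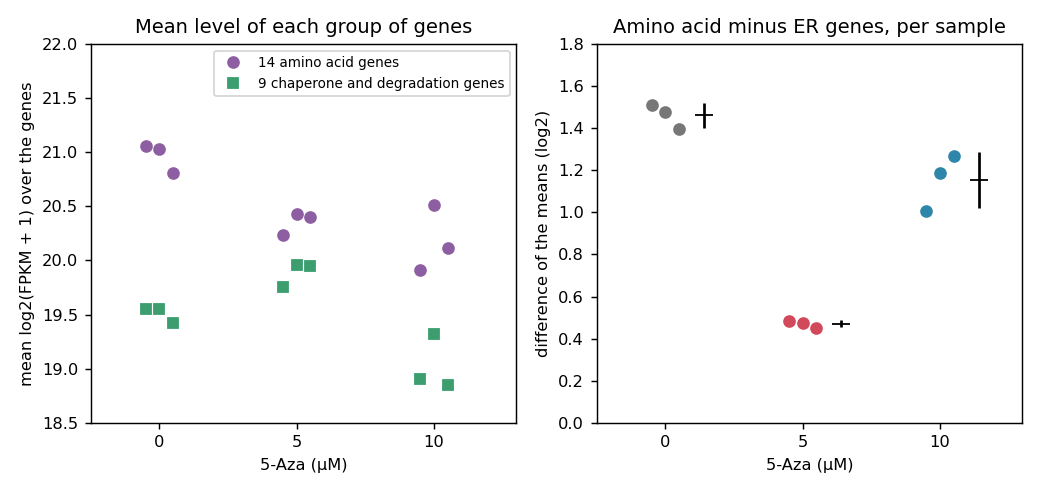
Left, the mean log2(FPKM + 1) of the 14 amino acid genes (circles) and of the 9 chaperone and degradation genes (squares) in each sample against the concentration of 5-Aza. Right, their difference in each sample, with the mean and SD of each group in black. The control samples lie between 1.39 and 1.51, the 5 µM samples between 0.452 and 0.486 and the 10 µM samples between 1.01 and 1.27.

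The comparison of the doses depended on how libraries were scaled. Among genes above 0 in all 6 samples, the median log2 difference was -0.04 at 5 µM vs. 0 µM, -0.24 at 10 µM vs. 5 µM and -0.23 at 10 µM vs. 0 µM. With median-of-ratios scaling, which sets these medians to 0, 13 of the 14 amino acid genes were lower and 6 of the 9 chaperone and degradation genes higher at 5 µM vs. 0 µM. With libraries scaled to the same total, which raised the 5 µM values, these counts were 8 and 8, and CARS was higher. Over all 20051 genes, 3569 were lower and 4620 higher with median-of-ratios scaling, and 1549 and 6616 with equal totals. The amino acid median at 10 µM vs. 5 µM was -0.16 as deposited, 0.08 with median-of-ratios scaling and -0.06 with equal totals. The median of the chaperone and degradation genes was -0.85, -0.61 and -0.76.

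Genes of the same pathways outside the 38 were counted on fixed lists of 96, of which 95 were in the files. At 5 µM vs. 0 µM, 19 of these 95 rose and 37 fell, beside 21.3% and 17.7% of all genes tested and, for falls, 33.6% and 46.5% at the 2 higher levels of abundance given above. Of 15 other tRNA synthetases, 10 fell and all 15 differences were negative, led by FARSB (log2 difference -0.93) and QARS (-0.83). Of 9 other amino acid transporters, 4 fell and 1 rose, led by the arginine carrier SLC7A1 (-0.999). Of 12 other amino acid and one-carbon enzymes, 5 fell and 3 rose, and the risers included BCAT1 and CBS, whose control means were 28.1 and 517 FPKM.

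On the ER side, 6 of 17 other chaperone and folding genes rose and 3 fell at 5 µM vs. 0 µM. The oxidase gene ERO1LB (2.48) and CRELD2 (1.48) had the largest log2 differences. Of 16 other ER degradation genes, 5 rose and 3 fell, led by DERL3 (3.12) and the lectin gene OS9 (0.67). Over all genes tested, 21.3% were higher and 17.7% lower. These shares were 7.46% and 46.5% among genes of at least 1 unit, and 12.6% and 33.6% between 0.1 and 1 unit. Of 9 other ER stress transducers, 4 fell by the limma test and 0 rose, while at an unadjusted p under 0.05, passed by 21.9% and 26.6% of all genes, these counts were 6 and 1. Of 7 genes for eIF2 alpha, its kinases, their regulators and its phosphatase, 1 rose (EIF2AK2) and 2 fell at 5 µM vs. 0 µM. Neither ER list outside the 38 moved in 1 direction at 5 µM vs. 0 µM. At 10 µM vs. 5 µM, 14 of the 17 chaperone and folding genes were lower and 0 higher at an unadjusted limma p under 0.05. Of the 16 degradation genes, 11 were lower and 1 higher, against 21.96% and 2.84% of all genes.

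Among 10 other regulators of the integrated stress response, 3 rose and 6 fell at 5 µM. ATF5, a bZIP factor related to ATF4, rose with a log2 difference of 2.74 (SE 0.14, limma adjusted p = 0.000164) from a control mean of 290172 FPKM to 1926253 FPKM. FGF21, a secreted hormone that ATF4 can activate, rose by 2.22 on the log2 scale (SE 0.18, limma adjusted p = 0.000445). ATF5 was also higher at 10 µM vs. 0 µM (2.24, SE 0.19, limma adjusted p = 0.00267). Between the doses, 13 of the 95 genes fell and 0 rose by the limma test, beside 5.85% and 0.319% of all genes. At an unadjusted p under 0.05 the counts were 38 and 1, beside 21.96% and 2.84%. In 10 µM vs. 0 µM, 23 fell and 3 rose, beside 9.71% and 5.39%.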

How the data were processed

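Paired-end reads were quality-filtered by the authors and mapped with TopHat to the hg19 build, and Cufflinks gave an FPKM per gene. The deposited FPKM values were used as they stand. The annotation version and the library term of the FPKM values are not given in the sources used here. Values of repeated symbols were summed. Differences were fitted with limma 3.58.1 in R 4.3.3 (lmFit and eBayes with trend) on log2(FPKM + 1), separately for each pair of groups (6 samples), over genes with a value of at least 10 FPKM in either group. Benjamini-Hochberg adjustment covered all genes tested, and calls used an adjusted p of at most 0.05, alone or with a change over 2-fold. For genes at 0 in some replicates, the log2 difference on this scale depends on the pseudocount and can exceed that of the group means. The fit was also run on simulated counts with known changes and a fixed spread. These held no shift in scaling and no outlying replicate, so they do not bear on those limits.

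The genes and lists were chosen with earlier results of these data known. The text names any of the 38 genes and, of each other list and comparison, at most the 2 genes with the largest log2 difference among those past the test. Estimated fragments came from the FPKM steps of 110-base miRNA entries, where 46 of 46 low values were whole multiples within 0.01. For 460 of 664 genes the steps lay within 15% of the length relation. Positions of genes are from GENCODE v44 lifted to GRCh37 and promoters from RefSeq on GRCh38.p14. P-values measure the spread between 3 cultures of 1 line. Alternatives covered the pseudocount, the filter, repeated symbols, scaling, the samples in the fit, the trend, the replicate number and each left-out replicate. Microarray measurements were not analysed here.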

Additional observations from a re-analysis of the deposited data

How the results depend on the processing

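Each log2 difference of the 38 genes was recomputed under 16 alternatives per comparison. Of these 1824 values, 1502 kept their direction and their side of the threshold, 194 kept the direction but lost the call, 69 kept the direction and gained one, and 59 changed sign. Every alternative kept the call for 15 of the 29 genes called at 5 µM vs. 0 µM, 1 of 7 at 10 µM vs. 5 µM (STC2) and 2 of 14 at 10 µM vs. 0 µM (STC2 and PSPH). Depth limits mainly STC2 at 10 µM, with at most 23.3 estimated fragments. The cause of the changes below was not tested.

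With libraries scaled to the same total, 15 genes were higher and 12 lower at 5 µM vs. 0 µM, and 4 and 0 with a change over 2-fold. Over all 20051 genes these counts were 6616 and 1549, and 3582 and 167. Under that scaling 1 gene was lower by over 2-fold at 10 µM vs. 5 µM, 3 were higher at 10 µM vs. 0 µM, and 1 was lower by over 2-fold. Among all genes these were 950 of 20085, and 2549 and 164 of 18928. With median-of-ratios scaling, 1 gene was lower by over 2-fold at 10 µM vs. 5 µM, 2 were higher at 10 µM vs. 0 µM and 3 were lower by over 2-fold. Among all genes these were 793 of 20085, and 1902 and 286 of 18928. With all 9 samples in one fit, 11 genes were lower at 5 µM vs. 0 µM, 12 at 10 µM vs. 5 µM and 23 at 10 µM vs. 0 µM, where 2 were higher. Counted over all genes, 2014, 1577 and 3615 were lower in these comparisons, and 1784 were higher in the last. Without the intensity trend, 3 genes were lower at 10 µM vs. 5 µM and 3 at 10 µM vs. 0 µM, 2 of these by over 2-fold. The counts over all genes were 951, 387 and 278.

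The replicate numbers did not pair the samples: the correlation of deviations within groups ran from -0.074 to 0.086 over the 9 pairs with the same number and from -0.16 to 0.10 over the 18 pairs with different numbers. A replicate block in the fit left 8 genes higher and 14 lower at 5 µM vs. 0 µM, 2 lower at 10 µM vs. 5 µM and 8 at 10 µM vs. 0 µM. No gene was called in the opposite direction under this replicate block.

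Leaving out 1 replicate at a time gave 12 to 19 lower genes at 5 µM vs. 0 µM, with 12 without the control replicate 2 or the 5 µM replicate 1, and 1 to 4 lower by over 2-fold, with 1 without the control replicate 1. For 10 µM vs. 5 µM it gave 1 to 17 lower genes, and 1 to 8 by over 2-fold. For 10 µM vs. 0 µM it gave 1 to 26, and 1 to 12 by over 2-fold. The highest counts in both came without the 10 µM replicate 2 (17 and 26), where 3993 of 20029 and 5219 of 18632 tested genes were lower. The count at 10 µM vs. 5 µM was 1 without each of the 5 µM replicates, 4 without the 10 µM replicate 1 and 2 without the 10 µM replicate 3. The count at 10 µM vs. 0 µM was 2, 1 and 4 without the control replicates 1, 2 and 3, and 3 without either of the 10 µM replicates 1 and 3. Over all genes tested, 415, 490 and 176 were lower at 10 µM vs. 5 µM without the 5 µM replicates 1, 2 and 3. At 10 µM vs. 0 µM, 257, 176 and 463 were lower without the control replicates 1, 2 and 3.

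The excess of the amino acid mean over the chaperone and degradation mean was 2.47, 1.56 and 2.19 at 0, 5 and 10 µM when medians over the genes replaced means. With the 4 transcription factors and 7 effectors added to the 14 (25 genes), it was 0.18, -0.012 and 0.46, a set that includes STC2 with its control values of 0. Without STC2 (24 genes, an alternative chosen after seeing the data) it was 1.00, 0.20 and 0.82.

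Sign changes were of values that had not passed the test. With median-of-ratios scaling, the log2 difference was 0.033 for CARS at 5 µM vs. 0 µM. For 10 µM vs. 5 µM it was 0.19 for ATF4, 0.039 for CEBPB, 0.22 for TRIB3, 0.17 for ASNS, 0.094 for MTHFD2, 0.13 for CARS and 0.073 for SARS. Against the control, 10 µM gave 0.15 for PPP1R15A, 0.12 for CARS, 0.039 for XBP1, 0.024 for HSP90B1, 0.036 for DNAJB9 and 0.18 for SDF2L1. With equal totals it was 0.28 for CARS, 0.16 for ERN1, 0.037 for XBP1 and 0.22 for SEL1L at 5 µM vs. 0 µM, and 0.042 for ATF4, 0.073 for TRIB3 and 0.021 for ASNS at 10 µM vs. 5 µM. Equal totals gave, at 10 µM vs. 0 µM, 0.29 for PPP1R15A, 0.26 for CARS, 0.18 for XBP1, 0.16 for HSP90B1, 0.18 for DNAJB9, 0.32 for SDF2L1 and 0.055 for EDEM1.

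With 1 replicate left out, values at 5 µM vs. 0 µM ranged from -0.027 to 0.12 for CHAC1, -0.062 to 0.038 for CARS, -0.036 to 0.086 for HERPUD1 and -0.14 to 0.060 for SEL1L. The ranges at 10 µM vs. 5 µM ran from -0.24 to 0.15 for ATF4, -0.39 to 0.022 for CEBPB, -0.21 to 0.20 for TRIB3, -0.032 to 0.17 for SESN2, -0.20 to 0.053 for ASNS and -0.021 to 0.34 for PHGDH. They were -0.39 to 0.045 for MTHFD2, -0.041 to 0.19 for SLC3A2, -0.16 to 0.13 for SLC7A5, -0.083 to 0.13 for SLC7A11, -0.33 to 0.0036 for SARS and -0.098 to 0.15 for XBP1. For 10 µM vs. 0 µM they were -0.26 to 0.067 for PPP1R15A and -0.17 to 0.12 for SDF2L1.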
